A study of Arabidopsis thaliana with 18 samples.

Results

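The gibberellin oxidases are small families of soluble enzymes that set the level of gibberellin, the hormone that drives stem and hypocotyl elongation by removing DELLA repressor proteins. GA20 oxidases (GA20ox) and GA3 oxidases (GA3ox) carry out the last steps of synthesis, with GA3ox making the bioactive hormone, whereas GA2 oxidases (GA2ox) inactivate it. Some of the genes are known for feedback, in which bioactive gibberellin lowers transcripts of GA3ox1 and some GA20ox genes and raises those of some GA2ox genes. The families are also known for control by light and temperature. In imbibed Arabidopsis seeds the light-regulated factor PIF1 lowers GA3ox1 and GA3ox2 and raises GA2ox2. Here 10 of the 33655 genes of the count table were taken by their locus: 3 GA20ox genes (GA20ox1, AT4G25420; GA20ox2, AT5G51810; GA20ox3, AT5G07200), 2 GA3ox genes (GA3ox1, AT1G15550; GA3ox2, AT1G80340) and 5 GA2ox genes (GA2ox1, AT1G78440; GA2ox2, AT1G30040; GA2ox4, AT1G47990; GA2ox6, AT1G02400; GA2ox8, AT4G21200).

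Transcripts were counted by 3′ Tag-Seq, which reads only the 3′ end of each transcript, in whole Arabidopsis seedlings of hec1hec2, of pifQ and of Col-0, each after 24 hours at 28°C or at 22°C, with 3 libraries in each of the 6 groups. All groups shared the Col-0 background, medium without sucrose and continuous white light, and the labels give 5 days of growth at 22°C before the treatment, whereas the methods of the study give a longer growth period. hec1hec2 is a double mutant of the bHLH genes HEC1 and HEC2, and pifQ is a quadruple mutant of the bHLH genes PIF1, PIF3, PIF4 and PIF5, each used as 1 line. The comparison asks how synthesis and inactivation genes of gibberellin respond to high ambient temperature, and whether that response differs without these factors.

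The targeted genes were examined first. HEC1 had 2691 to 3308 counts in the 6 libraries labelled hec1hec2, against 33 to 68 counts in the 6 Col-0 libraries, which goes against a loss of its transcript, so these are called the libraries labelled hec1hec2 throughout. HEC2 had 0 counts in each library labelled hec1hec2 at 22°C and 2 to 6 at 28°C, against 3 to 14 in Col-0. In pifQ, PIF3 had 1 to 6 counts and PIF5 had 3 to 12, against 56 to 83 and 170 to 553 in Col-0. PIF1 and PIF4 were not lower in pifQ: PIF1 averaged 19.4 CPM (counts scaled to library size) at 28°C and 15.2 CPM at 22°C in pifQ, against 14.4 and 11.1 CPM in Col-0, and PIF4 averaged 98.1 and 19.7 CPM in pifQ, against 80.0 and 15.7 CPM in Col-0. These levels of PIF1 and PIF4 go against a loss of transcript, so pifQ below stands for the libraries labelled pifQ, and a 3′ tag does not show whether the rest of a transcript is intact. Library totals were 3631558 to 6285632 counts (median 4599322), and the biological coefficient of variation over 18078 tested genes was 0.128. In pifQ 22°C replicate 2 the ratio to the other libraries changed in steps along the chromosomes, with a running log2 ratio that spanned 2.05, against 0.295 to 0.707 in the other 17 libraries, and the genomic neighbourhoods of the 10 genes stood at 50.5% (GA20ox2) to 164% (GA3ox1) of the other libraries. The 3 green tissue markers summed to 22510 to 51790 CPM, and the flower markers AP1 and AG were at 0 in all 18 libraries. The other flower marker, AP3, had 0 to 4 counts in a library.

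The members lie on chromosomes 1, 4 and 5. None overlapped another gene model of the TAIR10.1 annotation, and none shared a 50-base word of its last 500 transcript bases with another place in that genome (0 of 451 words for each of the 10). GA3ox2 lies at chr1:30200466-30202349 on the minus strand with 2 exons (TAIR10.1), and GA2ox4 at chr1:17698598-17701041 on the plus strand with 3 exons. Since the study turns on PIF factors, which bind the G-box CACGTG and the related E-box CACATG, which reads CATGTG on the other strand, these letters were looked for on both strands from 250 bases before to 50 bases after each gene start in the RefSeq annotation of TAIR10.1. The matches are shown because they mark which members carry such letters near the start, each 5′ to 3′ on the gene's strand with the motif in capitals.
GA20ox2, chr5:21057064-21057093: atgtataccaagCACATGaacaaatacgca
GA20ox2, chr5:21056921-21056950: agtatgaaatccCATGTGgcaaaaaaaaga
GA3ox1, chr1:5346395-5346424: ttgacaacccatCATGTGtatgtatcttat
GA2ox2, chr1:10537446-10537475: acgctgtatttcCATGTGtgcgagatacaa
GA2ox4, chr1:17698496-17698525: gcctaatacatgCACGTGataaccaatttt
The G-box was in 1 of 10 members, and in 7.68% of 27443 promoters of the same length. The E-box was in 3 of 10, and in 12.9% of those promoters. The other 6 members, GA3ox2 among them, held neither in this window. A match is a description of letters and not a bound site.

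All 10 genes were expressed at low levels, so that counting error is large for each of them. CPM are counts scaled to the normalised library size, and in 3′ Tag-Seq they do not depend on transcript length. Averaged over the 18 libraries, GA2ox6 was highest at 4.90 CPM (407 counts in all), followed by GA2ox2 at 3.27, GA3ox1 at 3.09, GA3ox2 at 2.64, GA20ox2 at 1.85 and GA2ox4 at 1.31 CPM. GA20ox1 (0.804 CPM), GA2ox1 (0.533 CPM), GA2ox8 (0.528 CPM) and GA20ox3 (0.290 CPM) did not pass the filter on low counts and were not tested. The 10 means stood between the 38.8th and the 56.8th percentile of all genes of the table. In the order of levels, the ranges over libraries of all neighbours overlapped. The remaining members of the families, GA20ox4, GA20ox5, GA3ox3, GA3ox4, GA2ox3 and GA2ox7, had at most 3 counts in any library and none of these 6 was tested.

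**Figure D1:**
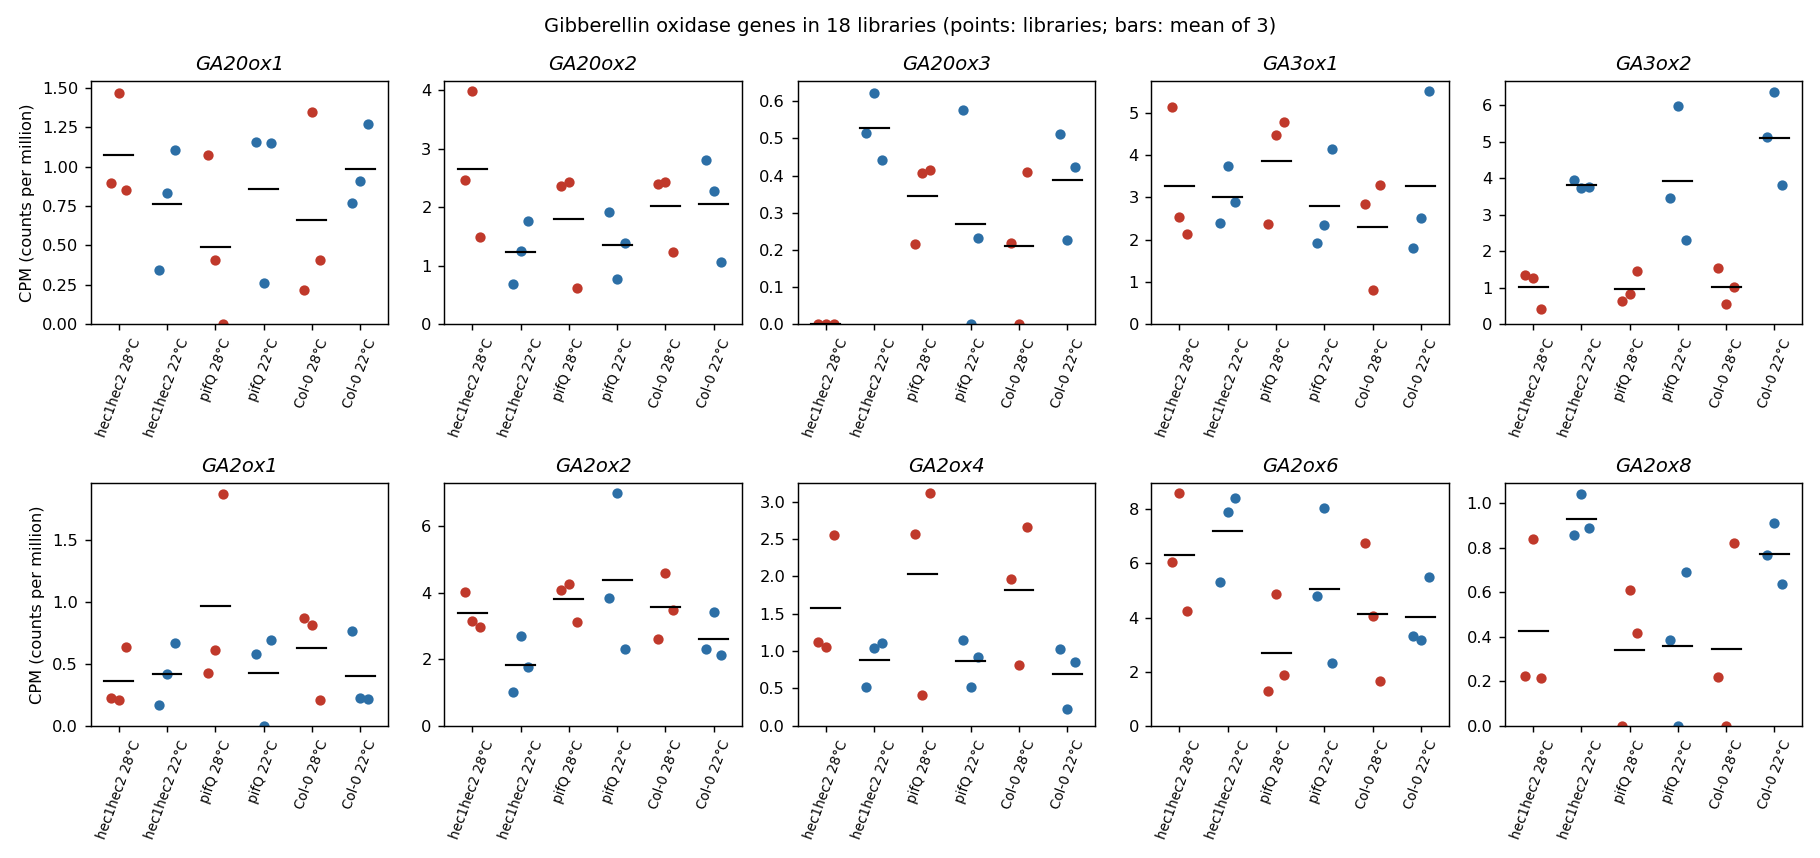
CPM of the 10 gibberellin oxidase genes by group, with 1 point per library (red at 28°C, blue at 22°C), a bar at the mean of 3, and a linear scale of its own for each gene. GA3ox2 is the gene in which all 9 libraries at 28°C (0.426 to 1.52 CPM) lie below all 9 at 22°C (2.31 to 6.36 CPM).

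The one tested member that changed with temperature in each genotype was GA3ox2, an enzyme of the final activating step that acts beside GA3ox1 in seedlings. In the libraries labelled hec1hec2, GA3ox2 had 6, 6 and 2 counts at 28°C, against 23, 18 and 17 counts at 22°C. In pifQ it had 3, 4 and 7 counts at 28°C, against 18, 23 and 10 counts at 22°C. In Col-0 it had 7, 2 and 5 counts at 28°C, against 20, 28 and 18 counts at 22°C. The groups did not overlap in any genotype, and the 9 libraries at 28°C (2 to 7 counts) were all below the 9 at 22°C (10 to 28 counts). Of all tested genes, 47.2% had groups without overlap in the libraries labelled hec1hec2, 35.9% in pifQ, 44.7% in Col-0 and 12.4% over all 9 libraries against 9. In CPM, GA3ox2 averaged 1.01 ± 0.51 at 28°C against 3.81 ± 0.11 at 22°C in the libraries labelled hec1hec2, 0.969 ± 0.43 against 3.91 ± 1.87 in pifQ, and 1.03 ± 0.49 against 5.10 ± 1.27 in Col-0 (SD, n = 3 each).

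By edgeR's quasi-likelihood test, with the Benjamini-Hochberg adjustment (FDR) over all 18078 tested genes, GA3ox2 fell at 28°C with a log2 fold change of -1.90 (SE 0.44, FDR = 0.00193) in the libraries labelled hec1hec2. The log2 fold change was -1.95 (SE 0.45, FDR = 0.00191) in pifQ and -2.23 (SE 0.43, FDR = 0.000397) in Col-0, a 4.71-fold lower level. In a contrast averaged over the 3 genotypes, which was added after the values were seen, it was -2.03 (95% interval -2.556 to -1.502, FDR = 3.3e-07), or 4.08-fold lower. Genes that changed 2-fold or more at an FDR of at most 0.05 are counted as called. By that rule 1 of 6 tested members was called in each genotype, where the share of all tested genes called was 8.93% in the libraries labelled hec1hec2, 7.82% in pifQ and 7.94% in Col-0. GA3ox2 passed the filter on low counts only through libraries at 22°C (10 to 28 counts), with 2 to 7 counts at 28°C. The count of 1 of 6 is therefore a description. With no filter the log2 fold change of GA3ox2 was -1.93 (FDR = 0.000395) in the libraries labelled hec1hec2. It was -1.95 (FDR = 0.000495) in pifQ and -2.27 (FDR = 1.91e-05) in Col-0. In pifQ, leaving out 28°C replicate 2 raised the number of members called to 3, with GA2ox4 at 1.64 (FDR = 0.033) and GA2ox6 at -1.64 (FDR = 0.0417) on the log2 scale. That fit kept pifQ 22°C replicate 2, where the genomic neighbourhoods of GA2ox4 and GA2ox6 stood at 135% and 161% of the other libraries.

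**Figure D2:**
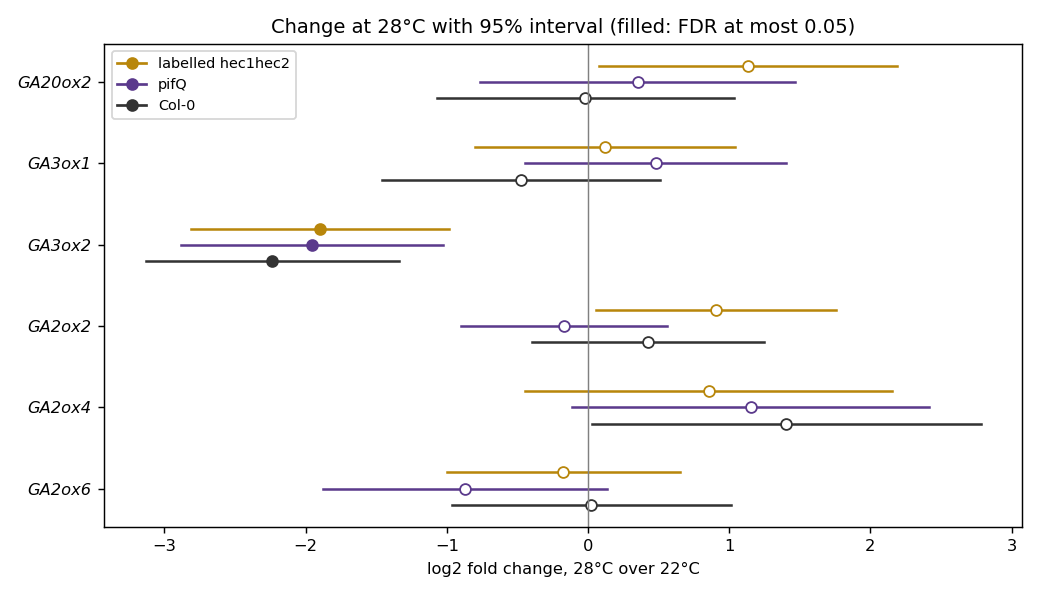
Log2 fold change at 28°C over 22°C of the 6 tested members in libraries labelled hec1hec2, in pifQ and in Col-0, with 95% intervals from edgeR and filled points at an FDR of at most 0.05. GA3ox2 is filled in all 3 genotypes, at -1.90, -1.95 and -2.23, and the other 15 points are open.

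GA3ox1, which catalyses the same reaction and is a well-known feedback target, did not pass the test between temperatures. It had 23, 12 and 10 counts at 28°C against 14, 18 and 13 at 22°C in the libraries labelled hec1hec2. In pifQ, GA3ox1 had 11, 22 and 23 counts at 28°C against 10, 9 and 18 at 22°C, and in Col-0 it had 13, 3 and 16 against 7, 11 and 26. The groups overlapped in every genotype, and the averaged log2 fold change was 0.04 (95% interval -0.51 to 0.59, FDR = 0.911). That interval excludes a change of GA3ox1 as large as the one of GA3ox2.

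Because both genes were counted in the same libraries, the GA3ox2 share of their joint counts does not depend on library size. Summed over 3 libraries, the share was 23.7% (95% Wilson interval 14.7 to 36%) at 28°C against 56.3% (46.7 to 65.5%) at 22°C in the libraries labelled hec1hec2. In pifQ it was 20% (12.3 to 30.8%) at 28°C against 58% (47.5 to 67.7%) at 22°C, and in Col-0 30.4% (19.1 to 44.8%) against 60% (50.7 to 68.7%). GA3ox2 made up the larger part of GA3ox counts in each group at 22°C and the smaller part in each group at 28°C. Single libraries had shares of 15.4 to 40% at 28°C, against 35.7 to 74.1% at 22°C, without overlap within a genotype. These intervals cover counting error only.

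**Figure D3:**
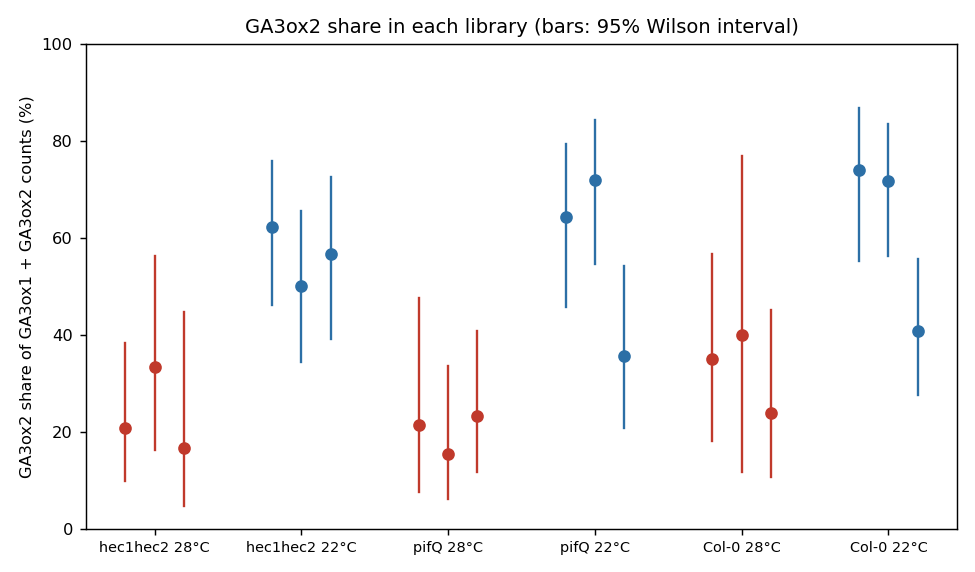
GA3ox2 counts as a percentage of GA3ox1 plus GA3ox2 counts in each of the 18 libraries, with 95% Wilson intervals (red at 28°C, blue at 22°C; libraries of a group side by side in order of replicate number). Shares lie between 15.4 and 40% at 28°C and between 35.7 and 74.1% at 22°C.

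The sum of both GA3ox genes was 4.27 ± 2.01 CPM at 28°C against 6.82 ± 0.59 at 22°C in the libraries labelled hec1hec2, 4.84 ± 1.66 against 6.71 ± 1.48 in pifQ and 3.34 ± 1.72 against 8.37 ± 1.28 in Col-0 (SD, n = 3 each). The groups did not overlap in Col-0, where the highest library at 28°C had 4.35 CPM and the lowest at 22°C had 6.91 CPM. They overlapped in the libraries labelled hec1hec2 and in pifQ. In whole seedlings, fewer cells that express a gene and less transcript per cell cannot be told apart. Of the 4 root markers, the log2 fold changes of COBL9, EXPA7 and PYK10 at 28°C were negative in every genotype, the sign of GA3ox2, and those of MRN1 were positive in every genotype. In Col-0 COBL9 fell by 1.05 on the log2 scale (FDR = 0.024) and PYK10 by 0.26 (FDR = 0.0448), EXPA7 was at -0.87 (FDR = 0.0787), and MRN1 rose by 1.38 (FDR = 0.017). MRN1 also rose in the libraries labelled hec1hec2, by 1.88 (FDR = 3.21e-05), and no root marker passed the test in pifQ. The summed root level, nearly all of it PYK10, was 2626 to 3077 CPM at 28°C against 2794 to 3041 at 22°C in the libraries labelled hec1hec2, 2126 to 2261 against 2245 to 2609 in pifQ and 2036 to 2251 against 2507 to 2659 in Col-0. Of the 3 green markers RBCS1A fell in each genotype (log2 fold change -0.86 in Col-0). LHCB1.1 (0.028 in Col-0) and LHCB1.3 (0.00091 in Col-0) did not pass the test in any genotype. Of the 2 seed markers CRA1 rose in each (4.62 in Col-0), and OLEO1 was not tested. OLEO1 averaged 1.00 CPM at 28°C against 0.42 at 22°C in the libraries labelled hec1hec2. It averaged 0.90 against 0.85 CPM in pifQ and 1.87 against 0.45 CPM in Col-0. The summed seed level, at 28°C mostly CRA1, was 4.31 to 17.4 CPM at 28°C and 0 to 1.56 CPM at 22°C over all genotypes. Their part in the GA3ox2 result was not tested.

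Among all tested genes, the 2 whose log2 CPM followed GA3ox2 most closely over the 17 libraries other than pifQ 22°C replicate 2 were AT3G52740 (Pearson r = 0.952) and AT4G29390 (r = 0.945), as a description across libraries that share the temperature contrast. AT3G52740 had 67 to 121 counts at 28°C against 141 to 245 at 22°C, and AT4G29390 had 703 to 1070 against 1210 to 2041. Both fell at 28°C in Col-0, by 0.91 (FDR = 0.000332) and by 0.78 (FDR = 3e-06) on the log2 scale. The RefSeq gene table gives no symbol for either.

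The GA20ox genes, which act 1 step before GA3ox, gave no call. GA20ox2 had 11, 19 and 7 counts at 28°C against 4, 6 and 8 at 22°C in the libraries labelled hec1hec2, with a log2 fold change of 1.13 (95% interval 0.08 to 2.19, FDR = 0.10). In pifQ it had 11, 12 and 3 counts at 28°C against 10, 3 and 6 at 22°C (log2 fold change 0.35, FDR = 0.668), and in Col-0 it had 11, 9 and 6 against 11, 10 and 5 (-0.02, FDR = 0.985). The groups overlapped in all 3 genotypes. GA20ox1, the family member best known from the stem, had 0 to 7 counts over the 9 libraries at 28°C (30 in all) and 1 to 6 over the 9 at 22°C (36 in all).

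GA20ox3 had too few counts for the main test. It had 0, 0 and 0 counts at 28°C against 3, 3 and 2 at 22°C in the libraries labelled hec1hec2. With a floor of 3 counts over the group at 28°C, the level was 2.45-fold lower. That figure leaves out the counting error of the 8 counts at 22°C. In pifQ it had 1, 2 and 2 counts at 28°C against 3, 0 and 1 at 22°C, and in Col-0 1, 0 and 2 against 2, 1 and 2. The groups overlapped in pifQ and in Col-0 but not in the libraries labelled hec1hec2. Without the filter on low counts, GA20ox3 reached an FDR of 0.0398 in the libraries labelled hec1hec2, and the other 3 low members did not pass in any temperature comparison.

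Among the inactivating enzymes, GA2ox4 had a positive log2 fold change in each genotype and did not pass the test in any of them. It had 5, 5 and 12 counts at 28°C against 3, 5 and 5 at 22°C in the libraries labelled hec1hec2 (log2 fold change 0.85, FDR = 0.335). In pifQ it had 12, 2 and 15 counts at 28°C against 6, 2 and 4 at 22°C (1.15, FDR = 0.169), and in Col-0 9, 3 and 13 against 4, 1 and 4 (1.41, FDR = 0.126). The groups overlapped in all 3 genotypes. The contrast averaged over the genotypes gave GA2ox4 a log2 fold change of 1.14 (95% interval 0.38 to 1.90, FDR = 0.0124), or 2.2-fold higher at 28°C. In that averaged contrast 2 of 6 members were called, GA3ox2 and GA2ox4, where 7.62% of all tested genes were called. Without the 2-fold rule, 50.6% of all tested genes passed an FDR of 0.05 there. GA2ox4 passed the filter on low counts only through libraries at 28°C (up to 15 counts), with at most 6 counts at 22°C. With no filter its averaged log2 fold change was 1.12 (FDR = 0.00642). Both called members entered the test through the temperature at which they were higher, so the count of 2 of 6 is a description. The change of GA2ox4 was 0.96 (FDR = 0.0486) without hec1hec2 28°C replicate 3 and 0.99 (FDR = 0.0385) without pifQ 28°C replicate 3, so that in both cases the number called was 1.

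GA2ox2, an enzyme that inactivates bioactive gibberellin, had 18, 15 and 14 counts at 28°C against 6, 13 and 8 at 22°C in the libraries labelled hec1hec2. These groups did not overlap, but the log2 fold change of 0.90 (95% interval 0.05 to 1.75) had an FDR of 0.103. In pifQ, GA2ox2 had 19, 21 and 15 counts at 28°C against 20, 27 and 10 at 22°C (log2 fold change -0.17, FDR = 0.76), and in Col-0 12, 17 and 17 against 9, 15 and 10 (0.42, FDR = 0.471). The count of 27 came from pifQ 22°C replicate 2, where the genomic neighbourhood of GA2ox2 stood at 163% of the other libraries. Averaged over genotypes, the log2 fold change was 0.39 (FDR = 0.157), and it was 0.54 (FDR = 0.0359) without that library.

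GA2ox6 had the most counts and spanned 1.29 to 8.62 CPM over the 18 libraries. It had 27, 41 and 20 counts at 28°C against 31, 38 and 38 at 22°C in the libraries labelled hec1hec2, 6, 24 and 9 against 25, 31 and 10 in pifQ, and 31, 15 and 8 against 13, 14 and 26 in Col-0. The groups overlapped in each genotype, and the log2 fold changes were -0.17 (FDR = 0.782) in the libraries labelled hec1hec2, -0.87 (FDR = 0.191) in pifQ and 0.02 (FDR = 0.98) in Col-0. The 31 counts in pifQ came from 22°C replicate 2, where the genomic neighbourhood of GA2ox6 stood at 161% of the other libraries. With 1 library left out, the change in pifQ was -1.64 to -0.43. GA2ox1, a relative of GA2ox2, had 1 to 9 counts over the 9 libraries at 28°C and 0 to 3 over the 9 at 22°C. GA2ox8, which acts on gibberellin precursors rather than on the bioactive hormone, had 16 counts in all at 28°C and 29 at 22°C, with 0 to 4 and 0 to 5 in single libraries. Summed over the 5 GA2ox genes, the level was 12.05 ± 1.65 CPM at 28°C against 11.3 ± 2.94 at 22°C in the libraries labelled hec1hec2, 9.83 ± 1.29 against 11.1 ± 4.33 in pifQ and 10.5 ± 1.80 against 8.49 ± 0.74 in Col-0 (SD, n = 3 each), with overlap in the libraries labelled hec1hec2, in pifQ and in Col-0.

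No tested member differed detectably between a mutant and Col-0. With edgeR, 0 of 6 tested members were called in libraries labelled hec1hec2 against Col-0 at 22°C or at 28°C, where 0.852% and 0.863% of all tested genes were called. In pifQ against Col-0, 0 of 6 were called at 22°C and at 28°C, beside 0.0553% and 0.625% of all tested genes. No member had an unadjusted p under 0.05 in these 4 comparisons, and DESeq2 called 0 as well. The members with the lowest p were GA2ox6 in libraries labelled hec1hec2 at 22°C (log2 fold change 0.81, 95% interval -0.08 to 1.70, FDR = 0.555) and at 28°C (0.61, FDR = 0.674), GA2ox2 in pifQ at 22°C (0.71, FDR = 0.484) and GA3ox1 in pifQ at 28°C (0.69, FDR = 0.662). For GA3ox2 the log2 fold change at 28°C was -0.07 (95% interval -1.25 to 1.11) in libraries labelled hec1hec2 and -0.12 (-1.30 to 1.06) in pifQ, each against Col-0. At 22°C it was -0.41 (-1.11 to 0.29) and -0.40 (-1.11 to 0.31).

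The temperature response itself was compared between genotypes by an interaction term. For GA3ox2 the response in libraries labelled hec1hec2 differed from that in Col-0 by 0.34 on the log2 scale (95% interval -1.06 to 1.74, FDR = 1), and the response in pifQ differed by 0.28 (-1.13 to 1.69, FDR = 0.946). These intervals allow a response of GA3ox2 more than 2-fold weaker or stronger in either mutant. No interaction of a member was called by edgeR or by DESeq2, none had an unadjusted p under 0.05, and 0.0166% and 0.0553% of all tested genes were called for hec1hec2 and for pifQ.

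The other genes of the pathway were taken from lists chosen with earlier results of these data known. A count of list genes beside the share of all tested genes is therefore a description. The median log2 fold change at 28°C is given for each list beside that of all tested genes, which was 0.05 in the libraries labelled hec1hec2, 0.0023 in pifQ and 0.04 in Col-0. Of the 5 genes of early synthesis 4 were tested, and 0 of 4 passed an FDR of 0.05 in any genotype with edgeR or DESeq2. Their medians were 0.23, 0.11 and 0.26, and 2 genes in pifQ (KO and KAO2) had an unadjusted p under 0.05. Of 4 genes for other routes of inactivation 1 was tested, CYP714A1, and it gave no call (log2 fold change 0.60 in the libraries labelled hec1hec2, 0.63 in pifQ and -0.04 in Col-0).

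Of the 9 tested genes for receptors, DELLA proteins and F-box proteins, 2 rose in the libraries labelled hec1hec2, 2 in pifQ and 1 in Col-0, where 14.9%, 13.1% and 13.2% of all tested genes rose at an FDR of 0.05. The medians of the list were 0.24, 0.13 and 0.38. The DELLA gene GAI rose to 51.8 ± 6.05 CPM at 28°C against 31.3 ± 1.33 at 22°C in the libraries labelled hec1hec2 (FDR = 0.00424) and to 55.3 ± 9.46 against 29.1 ± 4.75 in Col-0 (FDR = 0.000645; SD, n = 3 each). In pifQ it was 35.3 ± 1.75 against 34.0 ± 12.8 CPM (FDR = 0.841), and the interaction with temperature had an FDR of 0.401. The highest of these pifQ libraries was 22°C replicate 2 (48.0 CPM), where the genomic neighbourhood of GAI stood at 162% of the other libraries, and without it the log2 fold change of GAI in pifQ was 0.38 (FDR = 0.0781). The receptor gene GID1C rose by 0.79 on the log2 scale in the libraries labelled hec1hec2 (FDR = 0.0212) and by 1.098 in pifQ (FDR = 0.00171), with 0.53 in Col-0 (FDR = 0.131). The lowest pifQ library was 22°C replicate 2 (5.19 CPM), where the genomic neighbourhood of GID1C stood at 49% of the other libraries. With 1 library left out, the change of GID1C in pifQ was 0.82 to 1.35 (FDR 0.000827 to 0.0079). Without hec1hec2 22°C replicate 2 or 28°C replicate 1, GID1C missed the threshold in the libraries labelled hec1hec2, with 0.64 (FDR = 0.107) and 0.46 (FDR = 0.224). The DELLA gene RGL2 rose by 0.86 in pifQ (FDR = 0.0279). It missed the threshold with about the same change without 22°C replicate 3 (0.87, FDR = 0.054), without 28°C replicate 2 (0.87, FDR = 0.0559) or with only the pifQ libraries fitted (0.84, FDR = 0.146), and with a smaller one without 22°C replicate 1 (0.61, FDR = 0.152) or 28°C replicate 3 (0.61, FDR = 0.174).

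Of 5 genes known to respond to gibberellin, 4 rose in each genotype, against 14.9%, 13.1% and 13.2% of all tested genes, and the fifth, SCL3, did not pass the test. Since the list was chosen with earlier results of these data known, this count is no test of the list. The medians of the list, SCL3 included, were 0.69, 0.61 and 0.48. The log2 fold change of SCL3 was -0.25 in the libraries labelled hec1hec2, -0.12 in pifQ and -0.21 in Col-0. GASA6, a small cysteine-rich peptide gene, had 509 ± 16.6 CPM at 28°C against 208 ± 39.8 at 22°C in the libraries labelled hec1hec2 (log2 fold change 1.29, FDR = 3.77e-07), 394 ± 47.2 against 259 ± 47.4 in pifQ (0.61, FDR = 0.00368) and 540 ± 113 against 254 ± 15.0 in Col-0 (1.09, FDR = 6.64e-06; SD, n = 3 each). The interaction of GASA6 for pifQ was -0.48 with an unadjusted p of 0.0337 from edgeR (FDR = 0.615). GASA14 rose by 0.93 in the libraries labelled hec1hec2 (FDR = 0.000249), by 0.83 in pifQ (FDR = 0.00101) and by 0.63 in Col-0 (FDR = 0.00901). In pifQ 22°C replicate 2 the genomic neighbourhoods of GASA14 and GASA4 stood at 49.7% and 49.9% of the other libraries. Those of GASA1 and GASA6 stood at 132% and 130%. With 1 library left out, the change in pifQ was 0.56 to 1.03 for GASA14 and 0.49 to 1.00 for GASA4. Several of these calls lay close to the threshold, and the changes stayed positive where a call was lost. With only the pifQ libraries fitted, GASA1 (0.57, FDR = 0.056), GASA4 (0.75, FDR = 0.0644) and GASA14 (0.82, FDR = 0.0523) missed it in pifQ, which left 1 of 5, and DESeq2 counted 3 of 5 in Col-0, without GASA4 (0.45, FDR = 0.055). In Col-0, GASA4 (0.48 with all libraries) was at 0.45 to 0.51 without any one of the 6 Col-0 libraries or pifQ 28°C replicate 1 (FDR = 0.0603 to 0.103). GASA1 (0.44 with all libraries) was at 0.40 to 0.41 without Col-0 22°C replicate 2, 28°C replicate 2 or 28°C replicate 3 (FDR = 0.0566 to 0.0665), and GASA14 was at 0.55 without Col-0 28°C replicate 3 (FDR = 0.0556). In the libraries labelled hec1hec2, GASA1 (0.42 with all libraries) was at 0.34 without 22°C replicate 2 (FDR = 0.0965) and at 0.38 without 28°C replicate 2 (FDR = 0.0625). Against Col-0, GASA4 fell by 0.71 in libraries labelled hec1hec2 at 22°C (FDR = 0.0254) and GASA1 rose by 0.50 in pifQ at 28°C (FDR = 0.0497).

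**Figure D4:**
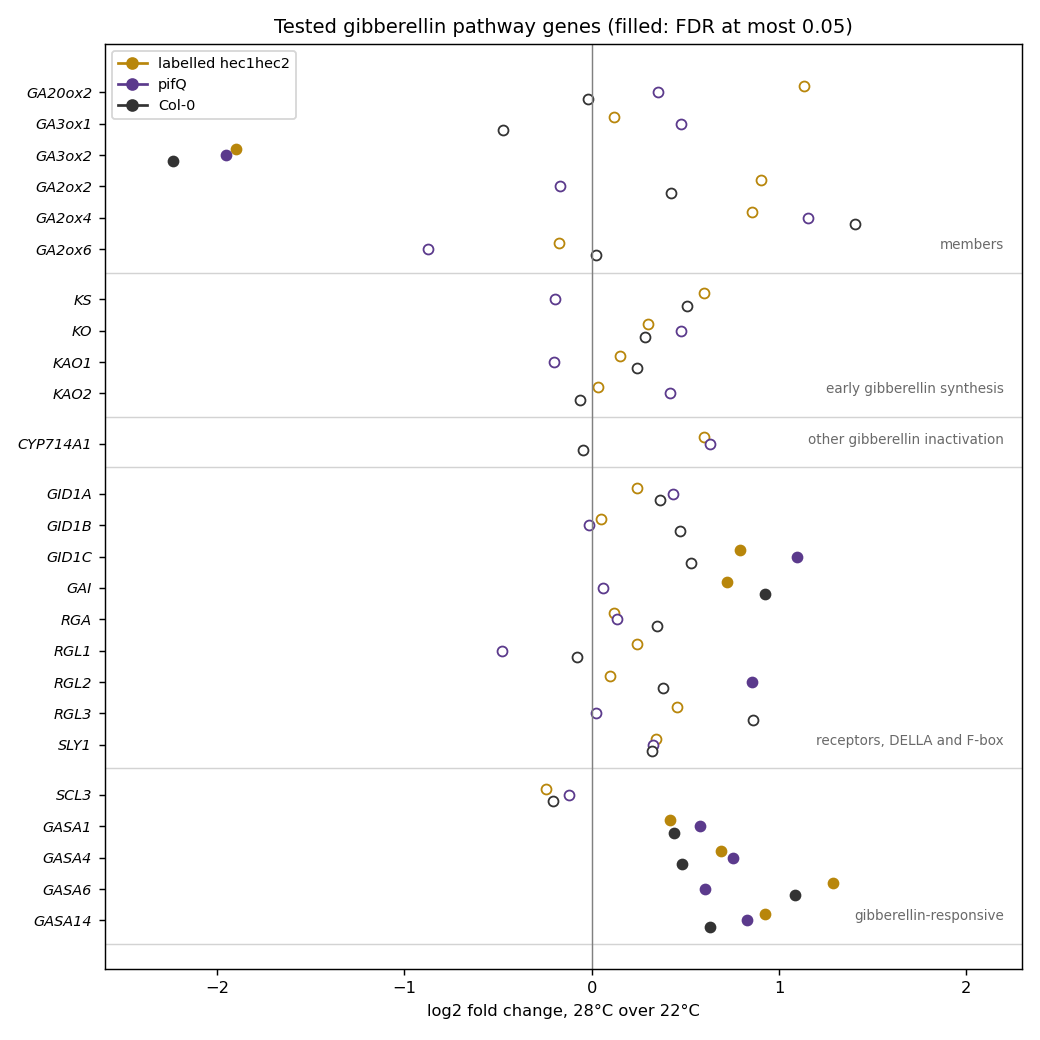
Log2 fold change at 28°C over 22°C of the tested genes of the gibberellin pathway by list, in libraries labelled hec1hec2, in pifQ and in Col-0, with filled points at an FDR of at most 0.05. GA3ox2 lies far to the left (-1.90, -1.95 and -2.23), and 4 of 5 gibberellin-responsive genes are filled to the right in each genotype.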

How the data were processed

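Transcript ends were sequenced by 3′ Tag-Seq in 18 libraries, whose groups and replicate numbers were read from the labels. The authors checked reads with FastQC, aligned them with TopHat and Bowtie2 and deposited raw HTSeq counts per TAIR10 gene. Versions, the strand setting and the treatment of duplicate reads are not given in the sources used here. The Wilson intervals and the floor (3 counts) cover counting error only, whereas the edgeR intervals also take in the spread between replicates. Replicates are biological according to the methods.

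A single quasi-likelihood model of the 6 groups was fitted in edgeR 4.0.16 (R 4.3.3) after filterByExpr and TMM scaling, and was checked on simulated data. The members are the 10 listed loci. The members and the pathway lists were chosen with earlier results of these data known. All 10 members are named. Of the pathway lists, up to 3 genes at an FDR of at most 0.05 are named with values for a contrast, with the rest named only as limits of a count after their values were seen. Standard errors are the absolute log2 fold change over the square root of F. CPM use the TMM library size. Sequences and coordinates come from RefSeq TAIR10.1 by locus, read with Python 3.11.15, and all 10 members matched. Alternatives were RLE factors, DESeq2 1.42.0, 2 other filters, only the groups compared, a replicate block, a running-median offset for pifQ 22°C replicate 2 and each library left out.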

Additional observations from a re-analysis of the deposited data

How the results depend on the processing

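The number of members called was recomputed under RLE factors, no filter on low counts, a minimum of 1 CPM in 3 libraries, only the groups compared, DESeq2, the running-median offset for pifQ 22°C replicate 2, the FDR alone and each library left out, with every other choice kept. GA3ox2 stayed at or under an FDR of 0.05 in 25 of 25 alternatives in each genotype, with log2 fold changes of -2.14 to -1.54 (FDR 0.000395 to 0.02) in the libraries labelled hec1hec2, -2.35 to -1.56 (FDR 0.000495 to 0.0271) in pifQ and -2.61 to -1.98 (FDR 1.91e-05 to 0.00408) in Col-0. With no filter the number of members called at 28°C in the libraries labelled hec1hec2 was 2, with GA20ox3 added. With 1 library left out it was 1 to 3 in pifQ (3 without 28°C replicate 2) and 1 to 2 in the contrast averaged over genotypes, which was added after the data were seen. In that contrast GA2ox4 passed an FDR of 0.05 in 25 of 25 alternatives (0.96 to 1.301, FDR 0.00196 to 0.0486), and GA2ox2 passed with the offset (0.48, FDR = 0.0475). Of all tested genes, 50.6% passed an FDR of 0.05 in the averaged contrast of the main analysis. All counts between genotypes and of interactions were 0 throughout.

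Under the replicate block the number of members called was 1 in each genotype, 2 in the averaged contrast and 0 elsewhere. Of 21 pairs of same-numbered libraries 2 had a correlation of deviations over 0.1 (range -0.0409 to 0.18). Low correlations do not exclude a weak pairing, so whether the numbers pair the samples stayed undecided.

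The remaining sign changes were in values that did not pass the test in the main analysis, and the cause was not tested. GA2ox6 in Col-0 at 28°C against 22°C was -0.0050 with RLE factors, -0.0096 with no filter and -0.012 with only the groups compared, and GA2ox2 in pifQ was 0.097 with the offset. With 1 library left out, log2 fold changes at 28°C against 22°C were -0.35 to 0.35 (GA3ox1) and -0.47 to 0.044 (GA2ox6) in the libraries labelled hec1hec2, -0.47 to 0.29 (GA2ox2) and -0.15 to 0.38 (GAI) in pifQ, -0.35 to 0.26 (GA20ox2), -0.80 to 0.15 (GA3ox1) and -0.57 to 0.44 (GA2ox6) in Col-0, and -0.12 to 0.25 (GA3ox1) when averaged. For libraries labelled hec1hec2 against Col-0 they were -0.44 to 0.46 (GA3ox1) and -0.11 to 0.63 (GA2ox4) at 22°C, and -0.013 to 0.70 (GA20ox2), -0.044 to 0.76 (GA3ox1), -0.33 to 0.30 (GA3ox2), -0.24 to 0.14 (GA2ox2) and -0.78 to 0.14 (GA2ox4) at 28°C. For pifQ against Col-0 they were -0.66 to 0.36 (GA3ox1), -0.057 to 0.68 (GA2ox4) and -0.15 to 0.63 (GA2ox6) at 22°C, and -0.42 to 0.27 (GA20ox2), -0.52 to 0.25 (GA3ox2), -0.063 to 0.32 (GA2ox2) and -0.35 to 0.59 (GA2ox4) at 28°C. Interactions with temperature were -0.030 to 0.92 (GA3ox1) and -0.61 to 0.39 (GA2ox6) for hec1hec2, and -0.12 to 0.67 (GA3ox2) and -0.70 to 0.24 (GA2ox4) for pifQ.

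Of the pathway genes, GASA4 in Col-0 missed the threshold with DESeq2 (0.45, FDR = 0.055), and with only the groups compared RGL2 (0.84, FDR = 0.146), GASA1 (0.57, FDR = 0.056), GASA4 (0.75, FDR = 0.0644) and GASA14 (0.82, FDR = 0.0523) missed it in pifQ, beside 0.86, 0.58, 0.76 and 0.83 in the fit of all groups. GID1C in Col-0 passed with the offset (FDR = 0.0417) and with only the groups compared (FDR = 0.0331). Low counts limit every member: GA3ox2 had at most 28 counts in a library and GA20ox3 at most 3.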
